A study of Mus musculus with 4 samples.

Results

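Rab GTPases are small membrane-bound switches that give each organelle of the vesicle pathway its identity. In their GTP-bound state they recruit motors, tethers and other effectors. Proteins of the Tbc1d family carry the TBC domain, which speeds up GTP hydrolysis and so switches Rabs off. In macrophages this system moves Toll-like receptors, phagosomes, lysosomes and secreted proteins. Their transcripts are described here for N6-methyladenosine (m6A), in which an adenosine of the RNA carries a methyl group. The members are all genes named in either table of sites whose symbol starts with Rab and a digit or with Tbc1d, 63 of 8800 genes. They comprise 35 Rab GTPases, 7 other genes that the symbol rule includes (Rab11fip1, Rab11fip5, Rab3gap1, Rab3il1, Rab3ip, Rab5if and the long noncoding RNA Rab10os) and 21 Tbc1d genes.

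The cells were macrophages grown from the bone marrow of 2 wild-type mice, and all of them had been treated with LPS, a bacterial cell wall component, for 3 h. Each mouse gave 1 immunoprecipitated (IP) library, made with an antibody against m6A, and 1 input library of the same RNA, so 4 libraries in all and no untreated cells. Both table names include NTC, a term left unexplained by the labels, and strain, sex and age of the mice were not stated in them. In m6A-eCLIP a site is a single nucleotide placed from where reads start, and its fold divides the read starts of the IP by those of the input from the same mouse. The folds are the authors' own values, 1 table per mouse, and the depth of the libraries is unknown.

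All 10 macrophage markers examined, among them Csf1r, Spi1 and Cd14, had a called site in both mice. No site was called in any of 4 T cell, 4 B cell and 4 stromal or endothelial markers, and 2 of 5 neutrophil markers had one (Camp and S100a8). A called site is not an expression level, so these counts describe only what the tables list.

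A site was called enriched where its fold was at least 8 (log2 fold of 3), and shared where the same nucleotide and strand was listed in both mice. Of the 63 members, 57 had a called site in both mice, and 54 of these carried at least 1 shared enriched site, 94.7%. Over all 7827 genes called in both mice the share was 86.9%. All 18 Tbc1d genes and all 7 other Rab-named genes called in both mice carried one, as did 29 of 32 Rab GTPases. At a fold of at least 16 the count was 42 of 57 members (73.7%), against 60.2% of all genes. Members also had more called sites than most genes, with a median of 5 sites called in both mice per gene against 3 over all genes, and a gene with more sites has more chances to hold an enriched one. With 1 IP library per mouse no test between samples exists, and none is given for any value below.

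The sites that can be set beside sequence are those near gene starts, because the RefSeq table of the GRCm38.p6 assembly, which shares the coordinates of mm10, gives 250 bases before and 50 bases after each start. Such windows were found for 54 of the 63 members and held 41 called member sites, 23 of them enriched in both mice in 15 genes. Of the 35 member sites in 5' UTRs enriched in both mice, 15 lay in no such window. The values below therefore describe sites close to a RefSeq start, not 5' UTR sites in general. The sequences below are shown because they hold the bases at which the antibody signal was placed in these genes. Each runs 5′ to 3′ on the strand of the gene, with 10 bases on either side of the called base, and the capitals mark the called base with its 2 neighbours.
Rab22a, start, chr2:173659835-173659855, plus strand: cggggaggtCAGgtgacccag
Rab11a, start, chr9:64737746-64737766, minus strand: gaagtgacgCATacagggcgg
Rab11a, base 4, chr9:64737742-64737762, minus strand: tgacgcataCAGggcggggct
Rab43, start, chr6:87811769-87811789, minus strand: gacggctggCAGagagctgcg
Rab3il1, start, chr19:10018241-10018261, plus strand: ccagcgggaCAGactggcggt
Rab3il1, base -2, chr19:10018239-10018259, plus strand: ggccagcggGACagactggcg
Rab1b, base -5, chr19:5106991-5107011, minus strand: agtggcaacCATcttggaacg
Rab21, base 9, chr10:115315572-115315592, minus strand: aggagacgcCATtagagggag
Rab5c, base 16, chr11:100738189-100738209, minus strand: gaagatccgGATccggagcgg
Rab20, base 16, chr8:11478614-11478634, minus strand: cctctttggCACttcatcgag
Rab7, base -182, chr6:88045189-88045209, minus strand: agctttgacCATaaagcccaa
Rab12, base -2, chr17:66519662-66519682, minus strand: cccttcctcTACtcccggcgg
Tbc1d22b, base -9, chr17:29549783-29549803, plus strand: gagtgcccaCATccaagatgg
The base number counts from the annotated start, which is 0, and negative numbers lie upstream of it. For Rab7 it counts from the start whose window held the site. Another annotated start of Rab7 lay nearer and upstream of this site, which was outside the 50 bases given after that start. The Rab7 site is therefore not shown to lie upstream of the gene. Of the 23 sites, 20 were annotated as 5' UTR in mouse 1. The Rab12 site was annotated as coding sequence in both mice, although it lay upstream of the RefSeq start used. The others were a noncoding exon site of Rab24 and the Rab43 site, annotated as intronic in mouse 1.

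All 41 member sites in these windows fell on an adenosine, as did all 4777 called sites of all genes in such windows, so the tables list adenosines there. The base before the called adenosine was C at 17 of the 23 member sites enriched in both mice (73.9%, exact 95% interval 51.6% to 89.8%), and the base after it was C at 4 (17.4%, 4.95% to 38.8%). Over the 1791 shared enriched sites of all genes in such windows the values were 72.9% and 16.8%, so the members resembled the whole set. Among all adenosines from 40 bases before to 39 after the start in the 32851 windows, 30.3% followed a C and 21.1% preceded one. The letters searched were CA and AC at the called base, on the gene's strand only because the sites carry a strand. These intervals cover counting error only.

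As background, internal m6A is usually found in a consensus in which C follows the modified adenosine. A related mark, m6Am, sits on the first transcribed nucleotide next to the cap, and antibodies against m6A recognise it as well. The tables do not separate these marks, so m6A and m6Am cannot be told apart at these sites. Of the 23 sites, 4 lay exactly on the annotated start (17.4%, against 15.9% over all genes) and 13 lay within 12 bases of it (56.5%, against 43.9% over all genes). The 4 were those of Rab22a, Rab11a, Rab43 and Rab3il1. The site of Rab22a, an early endosomal Rab, at chromosome 2, position 173659845, had folds of 60.2 in mouse 1 and 58.7 in mouse 2. Rab11a had 59.5 and 31.6 at its start (chromosome 9, 64737756) and 84.2 and 43.3 at its strongest site, 4 bases downstream (64737752). Rab43 had 48.1 and 42.4 (chromosome 6, 87811779), a nucleotide that the table of mouse 1 annotates as intronic and that of mouse 2 as 5' UTR. Rab3il1 had 29.1 and 79.0 (chromosome 19, 10018251). The lowest fold at these 4 starts was thus 29.1. Another called site on a start, that of Rab32 (chromosome 10, 10558207), was listed in mouse 2 alone with 4.33.

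**Figure D1:**
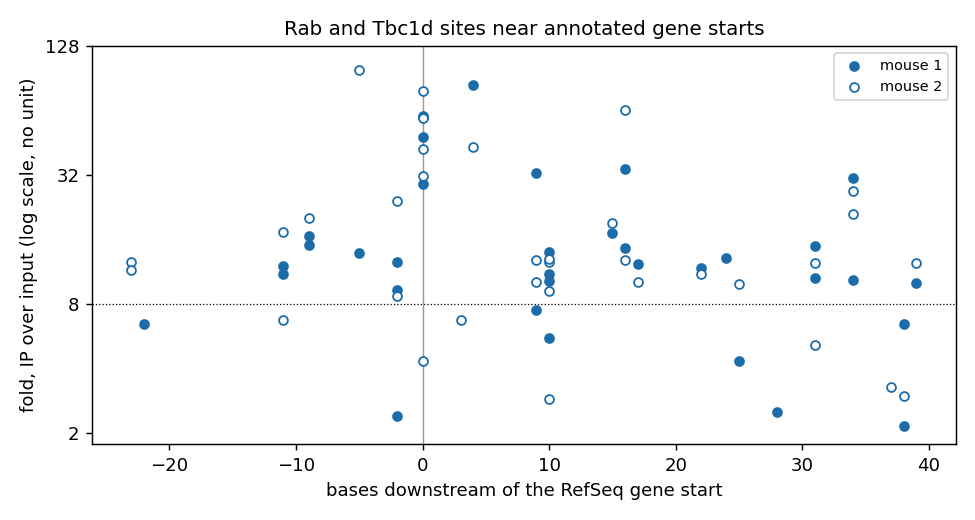
Called sites of Rab and Tbc1d genes by distance from the RefSeq gene start (bases, upstream negative), with the fold of IP over input on a log axis, filled points for mouse 1, open points for mouse 2 and a dotted line at the limit of 8. The site of Rab7 at base -182 is not drawn. The 4 shared enriched sites on the start itself had folds between 29.1 and 79.0.

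Among the Rab GTPases of late endosomes and lysosomes, all 7 called genes carried a shared enriched site, 39 sites in total. Of these, 26 lay in 3' UTRs (66.7%, against 38.0% over all other genes), but they came from 4 of the genes and 18 were in Rab7b. Rab7b, which in mouse macrophages limits Toll-like receptor 4 signalling by directing the receptor to lysosomes, had the most of all Rab GTPases. It held 24 called sites in each mouse and 18 shared enriched sites, all in the 3' UTR within 1334 bases of chromosome 1. Its strongest site (131712594, plus strand) had folds of 216 in mouse 1 and 178 in mouse 2, the highest mean log2 fold of all members. Next to it in strength were sites at 131712066 (98.3 and 92.4) and 131711985 (87.2 and 83.8). The strongest sites of Rab7b thus had like folds in both animals, whereas a 5' UTR site at 131688777 had 6.69 in mouse 1 and 58.7 in mouse 2.

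Rab7, the classical late endosomal Rab, differed from its paralogue Rab7b in where its sites lay. It carried a single shared enriched site, in the 5' UTR (chromosome 6, 88045199, minus strand), with 29.6 and 26.9. Its other called sites included a coding position with folds of 1.47 and 1.31 and a 3' UTR position with 3.07 and 3.78, both under the limit. A further 5' UTR position (88045260) had 5.52 in mouse 1 and 13 in mouse 2. Rab32, which acts on lysosome-related organelles and restricts intracellular Salmonella, had its strongest site in the 3' UTR (chromosome 10, 10546143) with 83.7 and 146. A pair of neighbouring 3' UTR sites had 65.2 and 60.7 and 57.7 and 59.7, and 5' UTR sites of Rab32 ranged from 4.33 to 10.03 with none enriched in both mice. Rab12, which directs receptors to lysosomes, reached 87.7 and 58.9 in the 3' UTR (chromosome 17, 66495130). Rab9 held 5 shared enriched sites, all coding, the strongest with 46.4 and 42.9. Rab29, which recruits the kinase Lrrk2, reached 39.6 and 22.6 in the 3' UTR, and Rab24 reached 31.1 and 27.0 in a noncoding exon.

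Rab20, a Rab of the maturing phagosome, had 11 shared enriched sites, 8 of them coding. The strongest (chromosome 8, 11454020, minus strand) had folds of 89.5 and 226, and coding sites at 11454130 and 11454056 had 130 and 84.7 and 113 and 67.6. A 3' UTR site at 11453919 had 123 and 89.5. These 4 lay at the end of the coding sequence or in the 3' UTR, while a coding site far upstream (11478343) had only 2.01 and 1.44 and the start site printed above had 14.5 and 12.8. In Rab20 the order of the strongest sites therefore differed between mice, although each of the 4 was enriched in both.

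**Figure D2:**
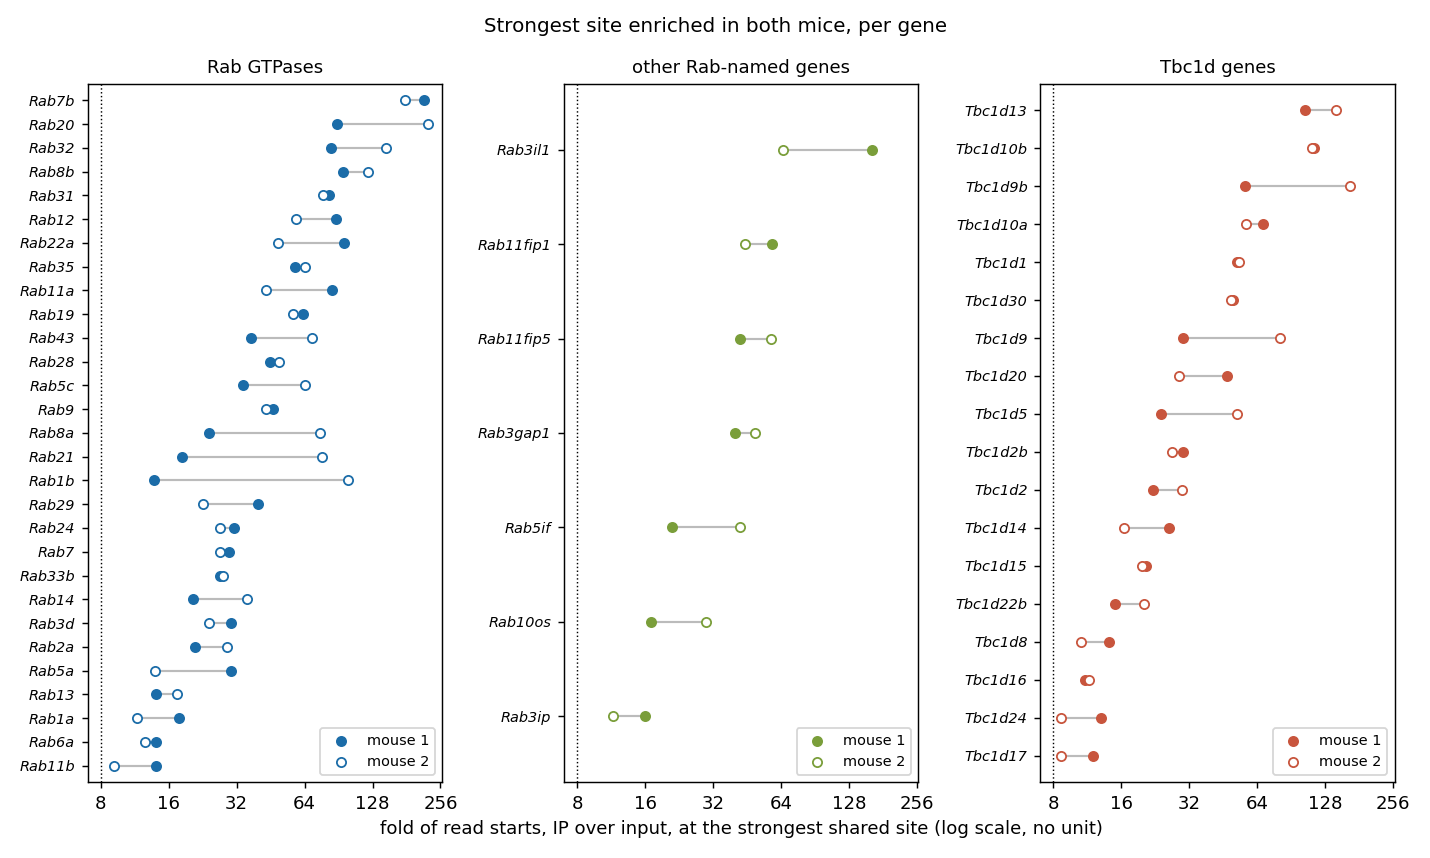
Fold of IP over input at the strongest site enriched in both mice, for each of the 54 genes that carry one, by class, on a log axis. Filled points are mouse 1, open points mouse 2, grey lines join them and the dotted line is the limit of 8. Rab7b and Rab20 lead the Rab GTPases and Tbc1d13 and Tbc1d10b the Tbc1d genes, while Rab1b shows the widest gap between the mice.

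Early endosomal Rabs had sites at both ends of the transcript. Their 20 shared enriched sites, in 5 genes, comprised 12 in 3' UTRs, 8 in 5' UTRs and none in coding sequence. The shares over all other genes were 38.0%, 13.96% and 43.5%. Rab31, which moves cargo between the Golgi network and endosomes, had 5 sites in the 3' UTR, the strongest at 65654275 on chromosome 17 with 82.2 and 77.0. Rab22a had its strongest in the 3' UTR with 95.3 and 48.6 (chromosome 2, 173701223). Rab21 reached 18.3 in mouse 1 and 76.1 in mouse 2 at 115290738 on chromosome 10, a gap of more than 4-fold. The 3 Rab5 paralogues, which define early endosomes, were unlike each other. Rab5c had 34.1 and 64.5 at base 16 (chromosome 11, 100738199), Rab5a had 30.1 and 13.96 in the 5' UTR (chromosome 17, 53483894), and Rab5b had 1 called site, in mouse 1 only, at 2.51. Reads from near-identical stretches of paralogues could have been placed at either copy, and how such reads were handled is not stated in the labels.

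The recycling Rabs also differed between paralogues. All 3 shared enriched sites of Rab11a lay in the 5' UTR within 32 bases, whereas the single one of Rab11b lay in the 3' UTR with 14.04 and 9.15. Rab14, which acts on phagosomes and recycling endosomes, had 3 sites, all in the 5' UTR, the strongest with 20.6 and 35.6. Rab35, a recycling Rab of the plasma membrane, had 8 shared enriched sites, the strongest at 58.2 and 64.5 (chromosome 5, 115646015, plus strand). That nucleotide and 3 other called sites of Rab35 were annotated as near a microRNA in mouse 1. By the RefSeq table they lay 77 to 383 bases downstream of the Mir7030 hairpin, and the table of mouse 2 annotated 2 of the 4 as 3' UTR.

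ER and Golgi Rabs had the lowest strongest folds of the role groups in mouse 1, with a median of 19.3 there and 28.5 in mouse 2 over the 6 of 7 genes with a shared enriched site. Rab1a, which starts transport out of the ER, reached 17.7 and 11.6. Its paralogue Rab1b gave 13.8 in mouse 1 and 99.2 in mouse 2 at base -5 (chromosome 19, 5107001), the widest gap among the strongest sites. Rab2a had 20.9 and 29.0 at its only called site, and Rab6a had 14.04 and 12.5, both in the 5' UTR. Rab33b, a Golgi Rab that binds the autophagy protein Atg16l1, had 3 sites, all coding, with 27.1 and 27.9 at the strongest. Rab43 had the most of these genes with 7 shared enriched sites, of which the strongest had 37.1 and 69.3. It is also where annotation was least settled, since 3 of the 5 member sites annotated differently between the tables were in Rab43.

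Among the Rabs of secretion and surface transport, 21 of 22 shared enriched sites lay in 3' UTRs, against 38.0% over all other genes. These sites came from 4 genes, and most were in Rab8b and Rab8a. Rab8b and Rab8a, paralogues that carry cargo to the surface, had 9 and 8 shared enriched sites, with 8 of 9 and 8 of 8 in the 3' UTR. The strongest of Rab8b (chromosome 9, 66847697, minus strand) had 94.6 and 122, and that of Rab8a (chromosome 8, 72180686, plus strand) had 24.2 and 75.1. Both genes also had a site at a 3' splice site that was not enriched, with 1.13 and 1.16 in Rab8b and 2.58 and 0.843 in Rab8a. Rab3d reached 30.1 and 24.1 and Rab13 reached 14.04 and 17.3. Among the other Rab GTPases, Rab19 had 4 shared enriched sites, all in the 3' UTR, with a highest of 63.2 and 56.8. Rab28, a Rab of cilia, had 6 with a highest of 45.1 and 49.1 in coding sequence.

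**Figure D3:**
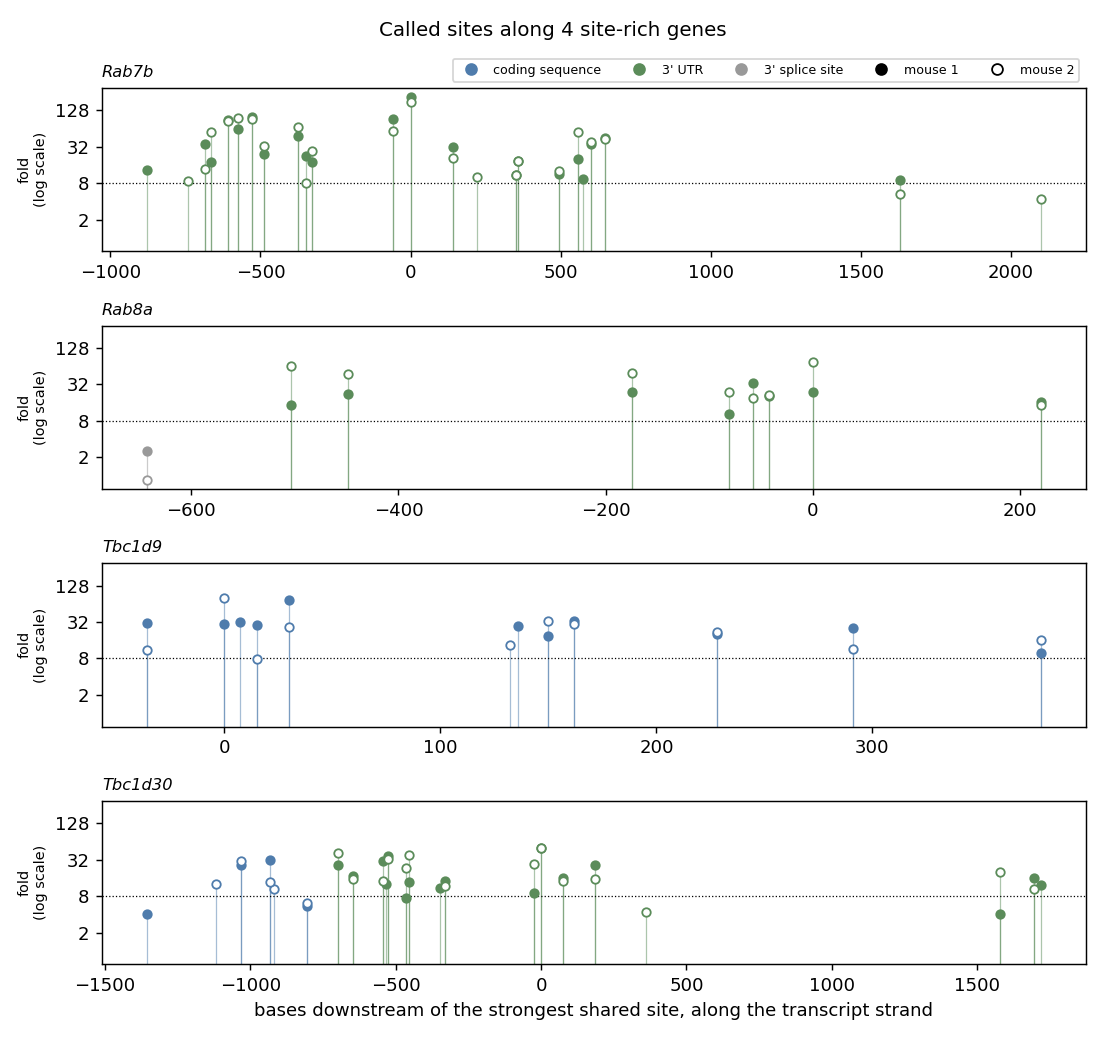
Called sites of Rab7b, Rab8a, Tbc1d9 and Tbc1d30 by distance in bases from the strongest shared site of the gene, along the transcript strand, with the fold on a log axis (filled points mouse 1, open points mouse 2, dotted line at 8) and colour for the annotated position. Sites more than 3 kb away are not drawn. The shared enriched sites of Rab7b span 1334 bases of 3' UTR and those of Tbc1d9 span 415 bases of coding sequence.

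The 3 Rab GTPases called in both mice without a shared enriched site were Rab10, Rab18 and Rab40c. In Rab10, a Rab of exocytosis and of Toll-like receptor 4 transport, a coding site had 10.7 in mouse 1 and 7.70 in mouse 2. That fold of mouse 2 is a read start ratio of exactly 8 times the constant of its table, 0.963, so Rab10 counted as enriched in both when the limit was applied before the constant. In Rab18, found on the ER and lipid droplets, a coding site had 12.8 and 6.05 and a 3' UTR site 6.02 and 12.04. Rab40c had 5.52 and 6.74. In Rab10 and Rab18 each site called in both mice passed the limit in 1 mouse only, and in Rab40c that site passed it in neither. Rab40c also had a site at 8.02 in mouse 1 alone, and Rab10 one at 1.93 in mouse 2 alone.

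Called in 1 mouse only were Rab4a (8.02, mouse 1), Rab5b, Rab23 (10.6, mouse 2), Tbc1d4 (9.03, mouse 1), Tbc1d19 (6.02, mouse 1) and Tbc1d25 (7.02, mouse 1), each with 1 site. That is 5 members in mouse 1 only and 1 in mouse 2 only, of 63. Over all 8800 genes the counts were 448 and 525, a similar share in total. The tables listed no site at all for 37 of the 99 protein-coding genes that match the symbol rule in the RefSeq table, among them 24 of 59 Rab GTPases and 9 of 30 Tbc1d genes. That is 37.4% of the genes matching the rule, against 61.4% of all 21900 protein-coding genes of that table. Rab27a, a Rab of secretory lysosomes, and Rab38, the close relative of Rab32, were among them. Whether such transcripts were unmodified or too scarce to give reads was not tested.

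The other Rab-named genes ranged from 2 to 17 shared enriched sites, and 2 of the 7 held most of them. Rab3il1, an exchange factor that activates Rabs, had 15 shared enriched sites, every one of its 15 called sites in mouse 1, with 13 in the 3' UTR. Its strongest (chromosome 19, 10034954, plus strand) had 161 and 65.5, followed by 127 and 72.2 at 10034670 and 90.3 and 79.0 at 10035261. Rab11fip1, an effector that links Rab11 to recycling endosomes, had 17, of which 9 were coding, the strongest at 27151963 on chromosome 8 with 58.2 and 44.3. Its relative Rab11fip5 had 6, the strongest with 42.1 and 57.8. Rab3gap1, the catalytic subunit of the Rab3 GTPase-activating complex, had 3 with a highest of 40.1 and 49.1. Rab5if reached 21.2 and 42.4, and Rab3ip, the exchange factor of Rab8, reached 16.05 and 11.6. The noncoding Rab10os, which lies beside Rab10, had 2 sites, both enriched in both mice, the stronger with 17.05 and 29.8.

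Tbc1d genes carried 96 shared enriched sites, and the site-rich members were Tbc1d10b with 16, Tbc1d9b and Tbc1d30 with 13 each and Tbc1d9 with 8. Tbc1d10b, also called EPI64B, had 14 of its 16 in coding sequence, the strongest at 127207862 on chromosome 7 (minus strand) with 114 and 112. A coding site at 127207681 had 151 in mouse 1 and 51.4 in mouse 2. Its paralogue Tbc1d10a had 4, the strongest with 68.2 and 56.8. Tbc1d13, an inactivator of Rab35, had the highest mean log2 fold of the family, in the 3' UTR (chromosome 2, 30151847, plus strand) with 104 and 143, and a second 3' UTR site with 95.3 and 56.8.

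The paralogues Tbc1d9b and Tbc1d9 both held mostly coding sites, 10 of 13 and 8 of 8. The strongest of Tbc1d9b (chromosome 11, 50171232) had 56.5 and 166, and a site 6 bases downstream (50171238) had 121 and 31.2, so the higher of these neighbours differed between the mice. All shared enriched sites of Tbc1d9 lay within 415 bases, with 30.1 and 80.9 at the strongest (chromosome 8, 83271204). In contrast 11 of the 13 sites of Tbc1d30, a regulator of Rab8 at cilia, lay in the 3' UTR, the strongest with 50.1 and 49.1 (chromosome 10, 121266100).

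Tbc1d genes that act on Rab10 in glucose transporter traffic differed: Tbc1d1 had 6 shared enriched sites with a highest of 52.1 and 53.0, whereas Tbc1d4 had 1 called site. Tbc1d20, which inactivates Rab1, had 7 with a highest of 47.1 and 28.9. Tbc1d5, a regulator of Rab7, had 2 with 24.1 and 52.0 at the stronger, and Tbc1d15, which also acts on Rab7, had 1 in the 5' UTR with 20.6 and 19.7. Tbc1d2, another regulator of Rab7, had 1, in the 3' UTR, with 22.1 and 29.8, and its paralogue Tbc1d2b had 5 with a highest of 30.1 and 27.0. Tbc1d14, which acts in autophagy, had 5 with a highest of 26.1 and 16.4. The lowest strongest folds were 12.03 and 8.67 in Tbc1d17 and 13.04 and 8.67 in Tbc1d24, close to the limit. Tbc1d8 and Tbc1d16 had a single site each, with 14.04 and 10.6 in Tbc1d8 and 11.03 and 11.6 in Tbc1d16. Tbc1d22b had 4, the strongest being the one printed above with 15.04 and 20.2.

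The annotated position of the sites differed between the families. Of the 133 shared enriched sites of Rab GTPases, 75 lay in 3' UTRs (56.4%, exact 95% interval 47.5% to 65.0%), 24 in coding sequence (18.0%, 11.9% to 25.6%) and 24 in 5' UTRs (18.0%, 11.9% to 25.6%). Of the 96 of Tbc1d genes, 55 lay in coding sequence (57.3%, 46.8% to 67.3%), 36 in 3' UTRs (37.5%, 27.8% to 48.0%) and 5 in 5' UTRs (5.2%, 1.7% to 11.7%). Over all other genes the shares were 43.5% in coding sequence, 38.0% in 3' UTRs and 13.96% in 5' UTRs. With all sites counted, the coding share was above that of all other genes in Tbc1d genes and below it in Rab GTPases. For Tbc1d genes the order of this share of sites rested on 3 genes, and the difference was not tested.

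Sites of 1 gene are not independent and the intervals take no account of that, so how the difference was spread over genes was counted as well. A shared enriched coding site was present in 14 of 18 Tbc1d genes (77.8%) and in 8 of 29 Rab GTPases (27.6%), against 49.4% of all genes with a shared enriched site. Without Tbc1d10b, Tbc1d9b and Tbc1d9, a choice made after their values were seen, the coding share of Tbc1d sites was 39.0% (23 of 59), below the 43.5% of all other genes. Of the 15 Tbc1d genes with a shared enriched site that remained, 11 had a coding one. Without Rab7b, the 3' UTR share of the Rab GTPases was 49.6%. The lengths of the coding sequences and UTRs were not used here, and their part in these shares was not tested. Genes whose shared enriched sites all lay in the 5' UTR numbered 7 of 29 Rab GTPases (Rab1b, Rab2a, Rab5c, Rab6a, Rab7, Rab11a and Rab14). In Tbc1d genes they numbered 2 of 18 (Tbc1d15 and Tbc1d17), and among all genes with a shared enriched site 15.1%. Of these, Rab2a, Rab6a, Rab7, Tbc1d15 and Tbc1d17 had only 1 such site. Genes with all of them in the 3' UTR were as many, 7 of 29 and 2 of 18, against 20.4% of all genes.

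**Figure D4:**
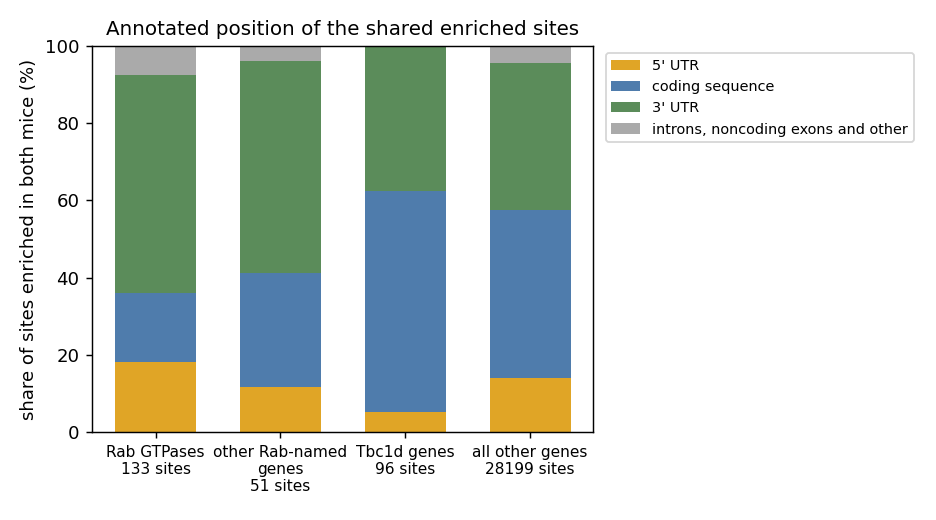
Share of the sites enriched in both mice by annotated position (percent, stacked to 100) for Rab GTPases, other Rab-named genes, Tbc1d genes and all other genes, with the number of sites under each bar. Coding sequence holds 18.0% in Rab GTPases and 57.3% in Tbc1d genes, against 43.5% in all other genes.

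Both mice gave similar counts. Mouse 1 listed 408 sites in the members and mouse 2 listed 424. Enriched were 336 (82.4%, exact 95% interval 78.3% to 85.9%) in mouse 1 and 350 (82.5%, 78.6% to 86.0%) in mouse 2, against 81.7% and 79.1% of all listed sites. The members' shares thus lay close to those of all sites. Of the enriched member sites, 280 were enriched in both mice, 83.3% of those of mouse 1 and 80.0% of those of mouse 2. The values for all genes were 78.8% and 77.8%.

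Of 356 member sites called in both mice, 280 were enriched in both (78.7%, against 76.9% of all sites called in both), 28 passed the limit in mouse 1 alone, 27 passed it in mouse 2 alone and 21 failed it in each. Over all genes, with 36752 sites called in both mice, the last counts were 2853, 2593 and 2827. The log2 folds of the 356 member sites had a Pearson r of 0.75 between mice, against 0.74 for all genes. The points are sites that share libraries and transcripts, so the correlation carries no p. At the shared enriched sites the median absolute difference between mice was 0.51 on the log2 scale for the members and 0.49 for all genes. A gap of at least 2-fold was found at 68 of the 280 member sites (24.3%, against 22.5% of all shared enriched sites) and of at least 4-fold at 7 (2.5%, against 2.04%). These gaps were taken only at sites at or above the limit in both mice. They leave out the 28 and 27 sites that passed it in 1 mouse. Also left out are the member sites called in 1 mouse only, 52 in mouse 1 and 68 in mouse 2. Single folds therefore carry an uncertainty of at least this order, and neighbours in an order of folds often do not differ beyond it.

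**Figure D5:**
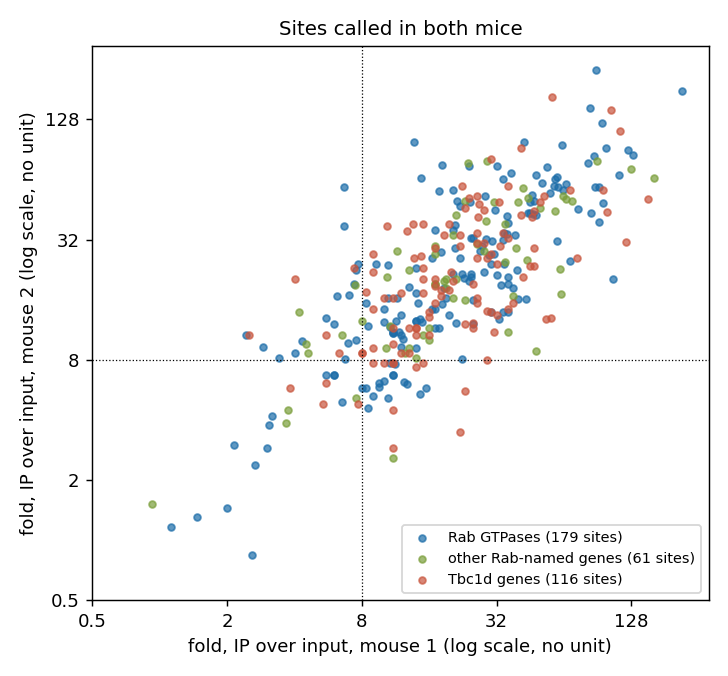
Fold of IP over input in mouse 1 (horizontal, log scale) and mouse 2 (vertical, log scale) for the 356 member sites called in both mice, by class, with dotted lines at 8. Most points, 280, lie above 8 in both mice.

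The median of the strongest shared fold per gene was 34.1 in mouse 1 and 48.6 in mouse 2 for Rab GTPases, and 28.1 and 29.4 for Tbc1d genes. Over all genes it was 27.1 and 28.6. Across the 54 members with a shared enriched site, the mean log2 fold of the strongest site went with the log2 number of such sites (Pearson r of 0.77, across genes, which share libraries). Gene length in the RefSeq table, which includes introns, did not (r of 0.00 between log10 length and log2 number of sites). Transcript length was not used, so its relation to the number of sites was not tested. By construction, the strongest of a gene's sites tends to be higher where the gene has more of them. The r of 0.77 was therefore partly fixed in advance. Medians of the strongest fold carry the same limit, as members had a median of 5 sites called in both mice against 3 over all genes. Neighbouring shared enriched sites of a gene lay a median of 64.5 bases apart in the members, against 88 over all genes. Of 226 neighbouring pairs, 7 lay within 5 bases (3.10%, against 3.07% over all genes).

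Other genes of the Rab cycle were examined through lists written by symbol. Of 34 activators, mostly DENN and Rin proteins, 21 were called in both mice and 17 carried a shared enriched site. They were led by Rin2 (84.7 and 156), Rabgef1 (106 and 63.6) and Dennd5a (140 and 32.5), and Dennd6a came next (54.2 and 53.0). Of 42 effector symbols, 20 of 22 called in both mice carried one, led by Rilpl2 (140 and 176), Ankfy1 (81.7 and 155), Myo5a (92.8 and 70.9) and the early endosomal tether Eea1 (31.1 and 122). Of 10 further TBC proteins, 5 of 6 did, led by Rabgap1l (14.04 and 35.6), Evi5l (13.04 and 20.2), Usp6nl (19.05 and 12.5) and Tbck (10.03 and 15.4).

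Genes of Rab prenylation and of Rab recycling between membranes had the fewest: 3 of the 6 called in both mice carried a shared enriched site. Among these were Rabggta (22.1 and 26) and Rabac1 (8.79 and 10.3), while Chm and Chml had none. Across the 4 lists 45 of 55 genes called in both mice (81.8%) carried one, against 86.9% of all genes. The median of the mean log2 fold of the strongest shared site was 4.58 in these lists, 5.21 in the members and 4.81 over all genes.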

How the data were processed

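m6A-eCLIP was performed on macrophages of 2 mice, with 1 IP and 1 input library each. Per the submitters' processing notes, UMI-tools 0.5.1, STAR 2.6.0c and cutadapt 2.7 were among the tools, and hg38 is listed beside mm10. Coordinates were read as mm10. Which program called sites, what its score means and which annotation it used is not given in the sources used here. As deposited, each table gives, per the file headers, a score and a fold for each site, the fold being a ratio of read starts in IP over input. No listed score was below 10.0001. Member folds were whole numbers within 1e-06 for 58.8% of sites in mouse 1 after division by 1.003, and for 59.9% in mouse 2 after division by 0.963. Whether the order of folds follows read numbers was not tested. Read numbers are not in these tables, so no count model was run and no fold has an error of its own.

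Sites were joined by nucleotide and strand. The position annotated in mouse 1 was used for shared sites, and 5 member sites were annotated differently in mouse 2. One site named Rab43 jointly with a predicted gene was left out. All 63 symbols were found in the RefSeq table of GRCm38.p6, and 99.2% of the member sites lay inside the gene named. Start windows come from RefSeq GRCm38.p6, the nearest start whose window held the site being used. Genes described with values were the 6 highest and the 4 with most sites in each class, members with none enriched in both, members called in 1 mouse and a set of organelle Rabs, with others added after their values were seen. Members and lists were chosen with earlier results of these data known. Rab GTPases were assigned to role groups by symbol, each gene to 1 group, and the groups are small. The 4 highest genes of each pathway list were named too, and values of 1 such gene are not reported here. The list of effectors holds a former and a current symbol of 1 gene. Intervals are exact (Clopper-Pearson) at 95%. A merge by nucleotide and strand was run on simulated tables that held the same folds in both. The joining step used on the real data was not itself run on them. Alternatives covered the fold limit, the table constant, the score, the overlap, merged sites, 1 site per gene and each mouse alone. Python 3.11.15, pandas 2.3.3, NumPy 2.4.6, SciPy 1.17.1 and Matplotlib 3.10.9 were used.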

Additional observations from a re-analysis of the deposited data

How the results depend on the processing

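Of 77 values recomputed under other settings, 71 stayed within 1.5 times the reported count or within the 95% interval of the reported share. At a log2 fold of 4, the shared enriched sites of Tbc1d genes numbered 53 in place of 96, the enriched sites of all members numbered 223 in mouse 1 and 223 in mouse 2, and the 5' UTR share of shared enriched sites in Rab-named genes was 11.1% in place of 16.3%. At that limit 42 of the 54 genes kept a shared enriched site. Counting 1 site per gene, its strongest, 16.7% of the Tbc1d sites lay in 5' UTRs (5.2% with all sites) and 27.8% in 3' UTRs (37.5%). The coding share was then 55.6% (57.3% with all sites). By the same count the strongest site was coding in 2389 of 6798 genes overall and in 4 of 29 Rab GTPases. Without Tbc1d10b, Tbc1d9b and Tbc1d9 it was coding in 7 of 15 Tbc1d genes, and these differences were not tested. The limit set before the table constant gave 55 genes, and a score of at least 20 gave 49. With 1 mouse left out, 56 to 59 members had an enriched site. The median over a gene's sites in place of its strongest, chosen after seeing the data, gave a median mean log2 fold of 4.58 in Rab-named genes and 4.35 in Tbc1d genes, in place of 5.44 and 4.99. No paired analysis was possible because the result comes from no test: the tables hold folds already formed within each mouse and no value of a single library. Depth is unknown, so it cannot be said which uncalled genes were within reach.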
